A study of Mus musculus with 15 samples.

Results

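A set of 8 genes known from neurons of the inferior olive was followed through 15 RNA-seq libraries from the mouse rostral ventrolateral medulla (RVLM). They were found by symbol in the deposited table, as 8 of its 55421 genes, and all 8 were among the 14852 protein-coding genes above 1 CPM (counts-per-million) in at least 1 library that entered the fits. The 8 were chosen by symbol after the counts of these same libraries had been compared between groups, so every comparison is treated as used in the choice. Their levels and differences are therefore given as a description. How many of them each tool called is given beside the share of all genes called, and neither the calls nor the unadjusted p counts of these 8 are independent evidence of a change.

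The inferior olive is a folded nucleus of the ventral medulla. Its glutamatergic neurons send the climbing fibres that end on cerebellar Purkinje cells. The neurons are coupled to each other by gap junctions built from connexin 36, and T-type calcium channels take part in the slow oscillation of their membrane potential. The nucleus lies medial and mostly caudal to the RVLM, the site of the C1 and other presympathetic neurons that set vasomotor tone.

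All mice carried a floxed Atp6ap2, the gene of the (pro)renin receptor (PRR), with loxP sites around exon 2. WT mice received AAV-GFP in the RVLM, and PRR RVLM-Null mice received AAV-CRE-GFP. Both vectors used the CMV promoter, which is not restricted to 1 cell type. The baseline groups (4 WT and 4 PRR RVLM-Null libraries) were collected 3 weeks after the virus as a separate cohort. The DOCA-salt groups (4 WT and 3 PRR RVLM-Null) were given at least 3 weeks for Cre expression, then a 50 mg deoxycorticosterone acetate pellet with 0.15 M NaCl as the only fluid, and were collected after 13 days. The numbers of DOCA-salt libraries are those of the labels, and the methods text has the WT and PRR RVLM-Null numbers the other way round, and which is right is not known. Mice were 12 to 14 weeks old at the start of the experiments. The labels call the mice female yet write PRRf/y for the baseline groups and PRRf/f for the DOCA-salt groups, and 6 of the 15 libraries had low Xist with Y-linked transcripts. RNA came from bilateral punches taken with a 1 mm needle in 250 µm sections, so tissue beside the RVLM may be included, and the cohort and the treatment cannot be told apart.

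Libraries held 19053970 to 30504796 counts. Atp6ap2 was at 114 to 139 CPM in WT baseline, 106 to 126 CPM in PRR RVLM-Null baseline and 134 to 154 CPM in WT DOCA-salt. On DOCA-salt the PRR RVLM-Null replicates 1 and 2 were at 90.2 and 89.6 CPM, while the third library with that label was at 145 CPM, inside the WT range. Mitochondrial rRNA took 20.3% to 28.8% of counts in the baseline libraries and 2.42% to 5.84% in the DOCA-salt libraries, except 19.1% in that same replicate 3. The part of these differences in the results was not tested. The 6 genes of C1 neurons, the catecholaminergic cells of the RVLM, summed to 24.1 to 54.8 CPM over the libraries, with the defining Pnmt at 0 to 1.26 CPM. PRR RVLM-Null DOCA-salt replicate 3 had 160 of 14852 genes at more than 2 times the next highest library, none of them among the 8 olive genes. WT DOCA-salt replicate 3 had 92 such genes, among them 4 of the 8, and the other 13 libraries had 0 to 21. Results that rest on WT DOCA-salt replicate 3 are given with and without it.

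The 8 genes were not at one level. Expressed per kilobase of gene model, Cacna1g had the highest level in WT baseline replicate 1, at 9.91 CPM per kb, followed by Gjd2 at 5.34 and Etv1 at 4.07. Calb1, Foxp2 and Pou4f1 followed at 0.779, 0.381 and 0.105 CPM per kb, Ano2 was at 0.0389 and Htr5b had no count. In WT DOCA-salt replicate 3 the order was different. There Calb1 led at 32.6 CPM per kb, before Htr5b at 28.6 and Pou4f1 at 23.95, and Etv1 was last at 3.39.

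Pou4f1 encodes the POU-domain transcription factor Brn3a, found in olive neurons and in sensory and habenular neurons. Its gene lies on GRCm38 chromosome 14, 104461676 to 104467999, on the minus strand. In WT baseline replicates 1 to 4 it was at 0.489, 3.83, 1.80 and 6.08 CPM. In PRR RVLM-Null baseline it was at 5.47, 0.831, 14.3 and 13.4 CPM. On DOCA-salt the WT libraries were at 0.656, 3.96, 112 and 4.40 CPM, and the PRR RVLM-Null libraries at 0.697, 0.902 and 1.02 CPM. One WT DOCA-salt library was thus 7.80 times the next highest library of the study, which was a PRR RVLM-Null baseline library, and the other 3 lay inside the WT baseline range. The 3 PRR RVLM-Null DOCA-salt libraries were low and close together, and by median CPM the order of groups was PRR RVLM-Null baseline, WT DOCA-salt, WT baseline, PRR RVLM-Null DOCA-salt, each overlapping the next.

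Htr5b encodes a serotonin receptor of the 5-HT5 family. It lies on chromosome 1, 121509842 to 121528465, minus strand, and the pseudogene Gm8217 on the other strand inside it had at most 1 count in any library. Htr5b had 0, 3, 0 and 1 counts in WT baseline and 0, 2, 1 and 5 counts in PRR RVLM-Null baseline. In WT DOCA-salt it had 6, 12, 1542 and 59 counts, or 0.246, 0.501, 55.3 and 2.06 CPM. In PRR RVLM-Null DOCA-salt it had 2, 3 and 9 counts, at most 0.508 CPM. Replicate 3 alone held 95.2% of the counts of its group. A count of 0 allows up to 3 counts, which is 0.191 to 0.225 CPM in the 3 libraries without a count. Most baseline libraries were thus at or near what this depth can detect.

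Ano2 encodes a calcium-activated chloride channel and lies on chromosome 6, 125690419 to 126040126, plus strand. The genes annotated within it, Gm24947 and Gm16303, had at most 1 count in any library. Ano2 had 3, 0, 3 and 1 counts in WT baseline and 4, 4, 6 and 9 in PRR RVLM-Null baseline. In WT DOCA-salt it had 13, 15, 1232 and 71 counts, or 0.533, 0.626, 44.2 and 2.48 CPM. In PRR RVLM-Null DOCA-salt it had 0, 28 and 29 counts. Its pattern resembled that of Htr5b, since the same library was highest, at 17.8 times the next, and WT DOCA-salt replicate 4 was second for both genes.

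Foxp2 encodes a forkhead transcription factor known from speech and motor circuits and present in the olive and in Purkinje cells. It lies on chromosome 6, 14901349 to 15441977, plus strand. WT baseline libraries were at 6.22, 4.15, 2.92 and 10.2 CPM and PRR RVLM-Null baseline libraries at 5.79, 7.54, 5.54 and 5.93 CPM. WT DOCA-salt libraries were at 4.18, 4.51, 83.0 and 9.29 CPM and PRR RVLM-Null DOCA-salt libraries at 8.37, 2.97 and 8.01 CPM. All 4 groups overlapped, and without the library at 83.0 CPM no value exceeded 10.2 CPM.

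Calb1 encodes calbindin, a cytosolic calcium-binding protein of olive neurons, Purkinje cells and many interneurons, and lies on chromosome 4, 15881264 to 15908064, plus strand. It was at 3.77, 8.31, 11.99 and 6.97 CPM in WT baseline and at 5.09, 98.0, 6.77 and 7.80 CPM in PRR RVLM-Null baseline. In WT DOCA-salt it was at 5.09, 13.1, 158 and 11.9 CPM, and in PRR RVLM-Null DOCA-salt at 44.6, 4.55 and 37.1 CPM. Of the 8 genes it was the one with high libraries in 3 groups. Of the other libraries with high Calb1, PRR RVLM-Null baseline replicate 2 had 2 counts of Htr5b and 4 of Ano2, and PRR RVLM-Null DOCA-salt replicate 1 had 2 and 0. PRR RVLM-Null DOCA-salt replicate 3, at 37.1 CPM for Calb1, had 9 counts of Htr5b and 29 of Ano2, above every baseline library for both genes in CPM.

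Gjd2, Cacna1g and Etv1 varied far less. Gjd2 encodes connexin 36, the gap junction protein of olive neurons, and lies on chromosome 2, 114009601 to 114013619, minus strand. It was at 15.4, 19.6, 15.8 and 17.7 CPM in WT baseline, 14.6, 16.7, 12.8 and 15.6 in PRR RVLM-Null baseline, 13.1, 14.3, 23.4 and 15.6 in WT DOCA-salt and 13.6, 11.6 and 13.8 in PRR RVLM-Null DOCA-salt. WT DOCA-salt replicate 3 was again the highest library, by 1.19 times, and the WT DOCA-salt libraries overlapped each other group. The antisense lncRNA gene A530058N18Rik overlaps the start of Gjd2 and had 61 to 224 counts under one identifier and 166 to 535 under the other, both highest in the same library. How the counter treated strand is not given in the sources used here, so the Gjd2 counts carry that uncertainty.

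Cacna1g encodes the T-type calcium channel Cav3.1 and lies on chromosome 11, 94408391 to 94474198, minus strand. It was at 100.4, 88.6, 78.1 and 51.5 CPM in WT baseline and 56.1, 65.3, 65.0 and 50.5 CPM in PRR RVLM-Null baseline. It was at 71.5, 50.8, 135 and 68.9 CPM in WT DOCA-salt and 66.9, 96.7 and 53.7 CPM in PRR RVLM-Null DOCA-salt. WT DOCA-salt replicate 3 was the highest library, by 1.35 times, within groups that overlapped.

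Etv1 encodes an ETS transcription factor and lies on chromosome 12, 38779380 to 38870484, plus strand. It was at 54.2, 40.1, 54.0 and 53.1 CPM in WT baseline, 45.8, 56.1, 40.2 and 46.8 in PRR RVLM-Null baseline, 44.3, 36.0, 45.1 and 44.7 in WT DOCA-salt and 31.8, 41.3 and 45.9 in PRR RVLM-Null DOCA-salt. It was the gene of the 8 for which WT DOCA-salt replicate 3 was not the highest library, and it differed from replicate 4 there by less than 1 CPM. The plot of CPM by group sets these 8 patterns side by side.

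**Figure D1:**
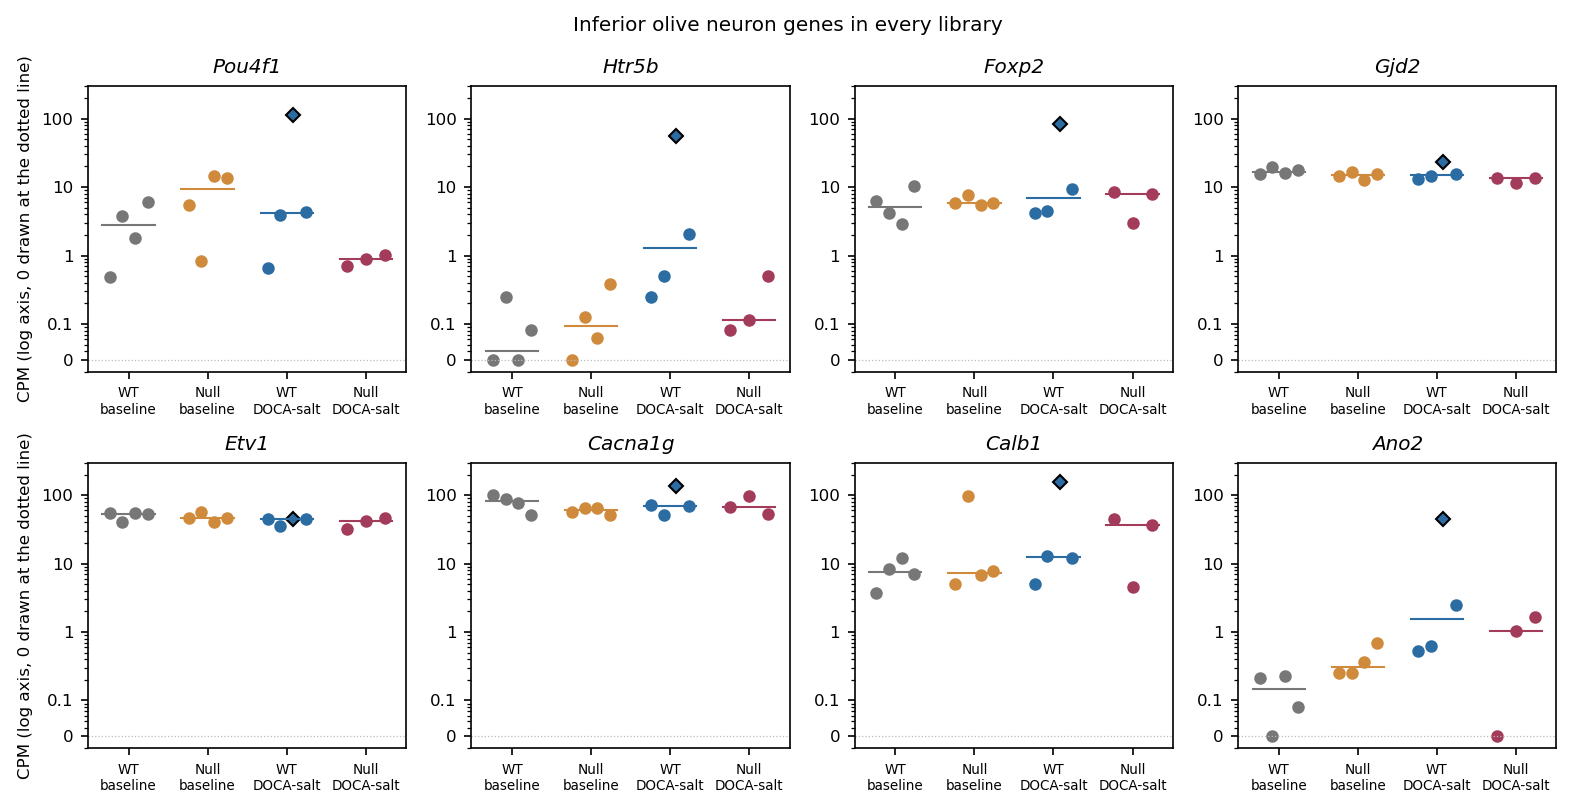
Level of each inferior olive neuron gene in every library, in CPM on a log axis, with 0 drawn at the dotted line. Points are libraries, bars are group medians, and the black-edged diamond is WT DOCA-salt replicate 3, which reached 112 CPM for Pou4f1 and 55.3 CPM for Htr5b but 45.1 CPM for Etv1, inside the range of the other libraries.

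Promoter sequences of 4 of the 8 genes (Pou4f1, Ano2, Gjd2 and Etv1) were found in the RefSeq table for GRCm38.p6. The 250 bases before the start are shown for Pou4f1 and Ano2, because both were far higher in the same library while their promoters differ in composition. CG dinucleotides are in capitals, and both are written 5′ to 3′ on the gene's strand. Pou4f1 is from chr14:104468000-104468249 on the minus strand, and Ano2 from chr6:125690169-125690418 on the plus strand, at the first of its annotated starts.
Pou4f1: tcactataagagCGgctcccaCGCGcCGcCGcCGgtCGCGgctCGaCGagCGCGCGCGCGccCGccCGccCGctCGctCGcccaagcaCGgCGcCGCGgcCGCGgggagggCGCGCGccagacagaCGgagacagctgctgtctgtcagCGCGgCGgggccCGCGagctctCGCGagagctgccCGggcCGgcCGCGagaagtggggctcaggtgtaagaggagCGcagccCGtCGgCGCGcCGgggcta
Ano2: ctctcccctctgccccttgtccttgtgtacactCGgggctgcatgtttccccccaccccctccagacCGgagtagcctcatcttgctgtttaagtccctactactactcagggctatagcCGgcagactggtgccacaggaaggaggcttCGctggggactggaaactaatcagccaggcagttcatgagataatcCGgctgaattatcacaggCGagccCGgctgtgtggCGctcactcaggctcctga
The Pou4f1 window was 78.0% G and C with 47 CG dinucleotides, a G and C share above that of 97.9% of all 32851 windows of the same length. The Ano2 window was 58.0% G and C with 8 CG dinucleotides, beside medians of 52.4% and 6 over all windows. Neither the POU-type letters AATTAAT nor the forkhead letters TGTTTAC were found in either window on either strand, and 2.46% and 3.17% of all windows hold them. The shorter forkhead letters TGTTTNC, which include TGTTTAC, were found in the Ano2 window, as in 17.8% of all windows. These matches are descriptions of letters and not of bound sites.

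For DOCA-salt against baseline in WT mice, Htr5b, Ano2, Pou4f1, Calb1 and Foxp2 had positive fitted differences and Gjd2, Cacna1g and Etv1 had differences near 0. On the log2 scale the difference was 7.45 ± 1.81 (SE) for Htr5b, 6.42 ± 1.59 for Ano2, 3.33 ± 1.22 for Pou4f1, 2.60 ± 1.14 for Calb1 and 2.11 ± 0.78 for Foxp2, with 4 libraries in each group. It was -0.04 ± 0.16 for Gjd2, 0.04 ± 0.26 for Cacna1g and -0.24 ± 0.14 for Etv1. Htr5b and Ano2, 2 of the 8, were past the limits used for all genes in edgeR's quasi-likelihood test (adjusted p of at most 0.05 after Benjamini-Hochberg and at least a 2-fold difference), beside 1.47% of the 14852 genes called higher and 0.707% called lower. This count is read no further, since the choice of the genes used this comparison. Htr5b exceeded 1 CPM only in WT DOCA-salt replicates 3 and 4, so it entered the fits only through the group where it was higher. Its call and the separation of its groups are therefore no support for a rise. The libraries of Htr5b and Ano2 did not overlap between the groups, which held for 8.87% of all genes in that direction. The median difference of the 8 was 2.35, beside -0.00092 over all genes tested. In bulk tissue, fewer cells of a type and less RNA per cell cannot be told apart.

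Most of this difference rested on 1 library, WT DOCA-salt replicate 3. Without it the log2 difference of Pou4f1 was 0.01 ± 0.80, that of Foxp2 0.04 ± 0.42 and that of Calb1 0.38 ± 0.94. Gjd2, Etv1 and Cacna1g were then at -0.24 ± 0.13, -0.27 ± 0.15 and -0.31 ± 0.21. Htr5b stayed at 3.52 ± 1.11 and Ano2 at 3.15 ± 1.05, with all 3 remaining WT DOCA-salt libraries above all 4 WT baseline libraries, which held for 10.6% of the 14789 genes then tested. For Htr5b the nearest libraries were almost level, at 0.246 CPM (6 counts) in WT DOCA-salt replicate 1 and 0.244 CPM (3 counts) in WT baseline replicate 2. Htr5b entered this fit only through WT DOCA-salt replicate 4, so its separation is again no support for a rise. Neither Htr5b nor Ano2 was called, and 0 of the 8 were called by edgeR, beside 0.866% of genes called higher and 0.453% called lower. At an unadjusted p of at most 0.05 there were 2 (Htr5b and Ano2), and 5 with all libraries. With all libraries limma voom called 0 and DESeq2 called 1, Pou4f1, and gave Htr5b, Foxp2 and Ano2 no adjusted p. Of the calls with all libraries, that of Htr5b was also lost without WT baseline replicate 1 or replicate 3 and that of Ano2 without WT baseline replicate 2, while without WT DOCA-salt replicate 1 edgeR called 4 (Htr5b, Ano2, Pou4f1 and Foxp2).

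WT DOCA-salt replicate 3 was the only library of its group with the male pattern of Xist and Y-linked transcripts. The 5 other libraries of that pattern were WT baseline replicate 4, PRR RVLM-Null baseline replicates 3 and 4, and PRR RVLM-Null DOCA-salt replicates 1 and 2. They had at most 5 counts of Htr5b and 28 of Ano2. Pou4f1 was at 6.08, 14.3, 13.4, 0.697 and 0.902 CPM in them, in that order. These were the highest values of both baseline groups and the lower values of the PRR RVLM-Null DOCA-salt group. With that pattern as a term in the fit, Htr5b and Ano2 were called as before. This term is shared by the 4 groups, so it cannot separate the pattern from what sets 1 library of 1 group apart. The part of the sex pattern was not tested.

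**Figure D2:**
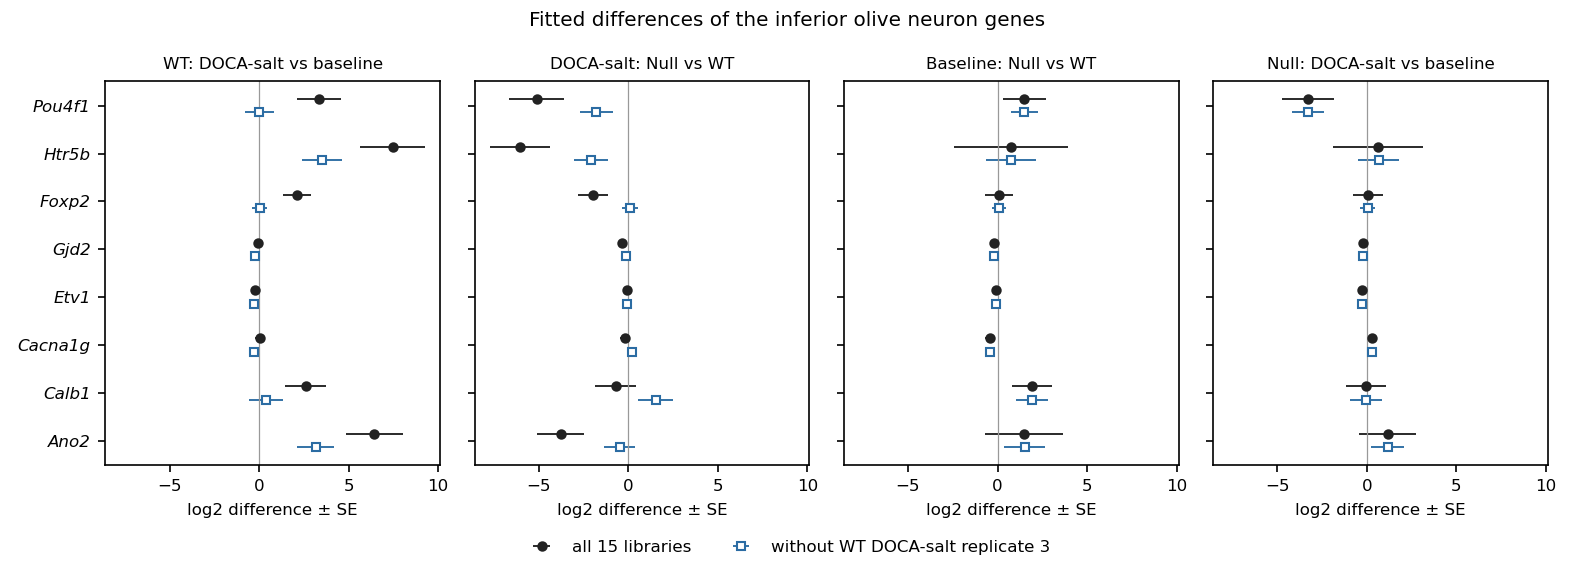
Fitted log2 difference of each gene in the 4 comparisons between groups, with bars of 1 SE, from all 15 libraries (filled circles) and without WT DOCA-salt replicate 3 (open squares). For DOCA-salt against baseline in WT, the Pou4f1 point moved from 3.33 to 0.01 when that library was left out, and the Etv1 point from -0.24 to -0.27.

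The comparison of PRR RVLM-Null with WT mice during DOCA-salt asks what loss of PRR did under the treatment. Of its 3 PRR RVLM-Null libraries, replicate 3 had Atp6ap2 at 145 CPM, inside the WT range, so loss of PRR is not shown in all 3. The fitted differences of this comparison were negative for the same genes. They were -6.07 ± 1.67 for Htr5b, -5.12 ± 1.52 for Pou4f1, -3.78 ± 1.32 for Ano2 and -1.98 ± 0.85 for Foxp2 on the log2 scale, with 3 and 4 libraries. Calb1 was at -0.72 ± 1.13, Gjd2 at -0.36 ± 0.18, Cacna1g at -0.17 ± 0.28 and Etv1 at -0.10 ± 0.15. None of the 8 was called by edgeR, beside 0.00673% of genes (1 gene) called. Of the 8, 4 were at an unadjusted p of at most 0.05, limma voom called 0 and DESeq2 called Pou4f1. For all 8 genes the libraries of the groups overlapped, while 4.84% of all genes lay lower in every PRR RVLM-Null library than in any WT library. This comparison and the previous one share the WT DOCA-salt libraries. Without replicate 3 the values were -2.10 ± 0.96 for Htr5b, -1.80 ± 0.92 for Pou4f1, -0.48 ± 0.86 for Ano2 and 0.10 ± 0.44 for Foxp2, and Calb1 turned to 1.52 ± 0.97. edgeR then called 0 genes in all, with 1 of the 8 (Htr5b) at an unadjusted p of at most 0.05. With WT DOCA-salt replicate 3 kept and PRR RVLM-Null DOCA-salt replicate 3 left out, edgeR also called 0 of the 8.

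At baseline, PRR RVLM-Null against WT, none of the 8 was called, and edgeR called 0 genes in all. None was at an unadjusted p of at most 0.05, and DESeq2 and limma voom called 0 of the 8. Calb1 had the highest value, 1.93 ± 1.14, and without PRR RVLM-Null baseline replicate 2 it was -0.24. Pou4f1 was at 1.496 ± 1.21 and Ano2 at 1.48 ± 2.17. The PRR RVLM-Null libraries all lay above the WT libraries for Ano2, at 4 to 9 counts against 0 to 3, as for 3.89% of all genes in that direction. The remaining 5 genes were between -0.43 ± 0.27 for Cacna1g and 0.75 ± 3.17 for Htr5b. The direction of Htr5b turned with 1 library, from -0.26 without PRR RVLM-Null baseline replicate 4 to 2.16 without WT baseline replicate 2.

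For DOCA-salt against baseline in PRR RVLM-Null mice the gene farthest from 0 was Pou4f1, at -3.29 ± 1.48, where 3 of 4 baseline libraries exceeded the DOCA-salt libraries. None of the 8 was called by edgeR, beside 1.59% of genes called, 1 (Pou4f1) was at an unadjusted p of at most 0.05, and DESeq2 and limma voom called 0. Without WT DOCA-salt replicate 3, which is in neither group but enters the shared estimate of the spread, Pou4f1 was at -3.28 ± 0.90 and was called, beside 0.467% of genes called lower. Ano2 was at 1.16 ± 1.57 and Htr5b at 0.63 ± 2.50, and without PRR RVLM-Null DOCA-salt replicate 3 they were at 0.48 and -0.42. The other 5 genes were between -0.25 ± 0.15 for Etv1 and 0.29 ± 0.28 for Cacna1g, and Calb1, at -0.04 ± 1.13 among them, was at 2.15 without PRR RVLM-Null baseline replicate 2.

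The difference between the DOCA-salt responses, PRR RVLM-Null minus WT, was -6.82 ± 3.90 for Htr5b, -6.62 ± 1.92 for Pou4f1, -5.27 ± 2.47 for Ano2, -2.64 ± 1.61 for Calb1 and -2.06 ± 1.15 for Foxp2 on the log2 scale. None of the 8 was called by edgeR, beside 0.33% of genes called, 2 (Pou4f1 and Ano2) were at an unadjusted p of at most 0.05, limma voom called 0 and DESeq2 called Pou4f1. Without WT DOCA-salt replicate 3 the values were -2.86 ± 1.72, -3.29 ± 1.18, -1.99 ± 1.44, -0.41 ± 1.29 and 0.01 ± 0.59 in the same order, and edgeR called 0 genes in all, with 1 of the 8 (Pou4f1) at an unadjusted p of at most 0.05. Without WT DOCA-salt replicate 1 edgeR called Pou4f1, and without PRR RVLM-Null baseline replicate 2 Calb1 was at -0.47.

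Other genes known from olive neurons were followed as a separate list of 5. Of these, 3 were called higher by edgeR in WT DOCA-salt than in WT baseline, beside 1.47% of all genes. DESeq2 called 2 and limma voom 1. Without WT DOCA-salt replicate 3 edgeR called 2, beside 0.866% of genes called higher. This list too was chosen with earlier results of these libraries known. Its calls are therefore a description and no independent evidence of a change. C1ql1, a secreted protein that climbing fibres supply to Purkinje cells, was at 8.90, 11.3, 108 and 11.5 CPM in WT DOCA-salt. In WT baseline it was at 4.26, 3.26, 4.87 and 5.92 CPM, so the groups did not overlap, as for 8.87% of all genes in that direction. The antisense gene Gm26668 is annotated over it, so its counts carry the same uncertainty as those of Gjd2. The log2 difference of C1ql1 was 2.94 ± 0.68 (edgeR, Benjamini-Hochberg adjusted p = 0.0131), and without replicate 3 it was 1.22 ± 0.25 (adjusted p = 0.0150). In PRR RVLM-Null DOCA-salt C1ql1 was at 6.52, 4.58 and 7.28 CPM, and the difference from WT of -2.52 ± 0.73 did not pass (edgeR adjusted p = 0.166). This difference includes WT DOCA-salt replicate 3, at 108 CPM. Without that library edgeR did not call C1ql1 either, at an unadjusted p of at most 0.05. Crh, a stress neuropeptide also made in the olive, rose by 3.50 ± 0.98 (edgeR adjusted p = 0.0313), with 77.6 CPM in replicate 3 and 3.36 to 11.4 CPM in the rest of its group, and did not pass without that library (adjusted p = 0.194). Cartpt, the precursor of the CART peptides, rose by 1.67 ± 0.31 (edgeR adjusted p = 0.00397) and by 1.49 ± 0.31 without it (adjusted p = 0.0152). The rises of Crh and Cartpt were known from earlier results of these libraries. Slc17a6, the vesicular glutamate transporter of olive and other neurons, was at 0.45 ± 0.23 (adjusted p = 0.216).

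Genes for the machinery around Gjd2 and Cacna1g were followed as separate lists. Of 9 other channels of the olivary oscillation, 0 were called by edgeR in WT DOCA-salt against WT baseline, 4 were at an unadjusted p of at most 0.05, DESeq2 called 0 and limma voom called 1. The list's median difference was -0.16. The T-type channel gene Cacna1i was at 36.2, 56.5, 76.9 and 32.5 CPM in WT DOCA-salt against 27.3 to 29.2 CPM in WT baseline, without overlap as for 8.87% of all genes, and had a difference of 0.85 ± 0.23 (edgeR adjusted p = 0.0261), under 2-fold. Of 11 other connexins and pannexins, 10 were tested and 0 were called by edgeR, DESeq2 or limma voom, with 4 at an unadjusted p of at most 0.05 and a median of -0.17. Panx2, the pannexin with the smallest p, was at 0.37 ± 0.14 (adjusted p = 0.111).

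Of 19 paralogs of the 8 genes, 16 were tested and, beside 1.47% of all genes, 1 was called higher, Calb2. It encodes calretinin, a relative of calbindin, and was at 310.2 CPM in WT DOCA-salt replicate 3 against 83.7 to 168 CPM in the rest of its group (1.19 ± 0.33, edgeR adjusted p = 0.0288). Without that library it was not called (0.69 ± 0.25, adjusted p = 0.114). Etv5, the relative of Etv1, was at -0.64 ± 0.18 (adjusted p = 0.0281), under 2-fold. DESeq2 and limma voom each called 1 of the list.

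Marker lists of neighbouring cells and positions differed between the same libraries, and their part in the result was not tested. The summed level of the 8 olive genes was 656 CPM in WT DOCA-salt replicate 3 and 124 to 245 CPM in the 14 other libraries. In the same library 12 Hox genes of the caudal hindbrain summed to 227 CPM, above the 22.3 to 150.1 CPM of the others. Of the 12, Hoxd3 and Hoxb3 were called higher in WT DOCA-salt than in WT baseline, beside 1.47% of all genes. Their differences were 1.52 ± 0.47 and 1.29 ± 0.40 (edgeR adjusted p = 0.0453 for both). Without that library 0 of the 12 were called, with 4 at an unadjusted p of at most 0.05. The 7 genes of cholinergic motor neurons summed to 76.5 CPM there, the second lowest of the 15 libraries, beside 28.0 to 1777 CPM over all, and 1 of them was at 0. The library at 28.0 CPM, PRR RVLM-Null baseline replicate 2, had the highest olive sum of the 14 other libraries, 245 CPM. Of this sum Calb1 was 98.0 CPM. Its 5 other olive genes summed to 244 CPM, inside the 173 to 260 CPM of its group.

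Of 8 markers of cerebellar cells, some of which also express Calb1 and Foxp2, 2 were highest in that library. Slc1a6 was at 11.2 CPM there against at most 10.8 CPM elsewhere, and Cbln3 at 3.16 CPM against at most 2.43 CPM. These markers summed to 175 CPM there, of which Itpr1 was 117 CPM, and this sum was the lowest of the 15 libraries (175 to 299 CPM). Its Purkinje cell marker Pcp2 was at 0.179 CPM and the granule cell marker Gabra6 had no count. Pcp2 was at most 0.70 CPM and Gabra6 at most 0.38 CPM in any library, and both are named as defining markers after their values were seen. Of the 6 tested genes of this list 0 were called by edgeR in WT DOCA-salt against WT baseline, 2 were at an unadjusted p of at most 0.05, DESeq2 called 1 and limma voom called 0. Without replicate 3 edgeR called Skor2. The 6 serotonergic raphe genes summed to 217 CPM in replicate 3, within the 125 to 317 CPM of its group, against 4.72 to 13.7 CPM in WT baseline, and all 6 were called higher with and without replicate 3. Of the 6 C1 neuron genes 3 (Th, Dbh and Pnmt) were called higher in the same comparison, with a median log2 difference of 1.35, or 1.12 without replicate 3. Pnmt was near or below the 1 CPM limit of the filter in every library. Of 4 genes of medullary GABAergic and glycinergic neurons 2 (Gad1 and Gad2) were called higher, with a median of 1.12, or 1.20 without replicate 3, and the same genes were called without it. Beside these counts, 1.47% of all genes were called higher, or 0.866% without replicate 3. These lists too were chosen with earlier results known.

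**Figure D3:**
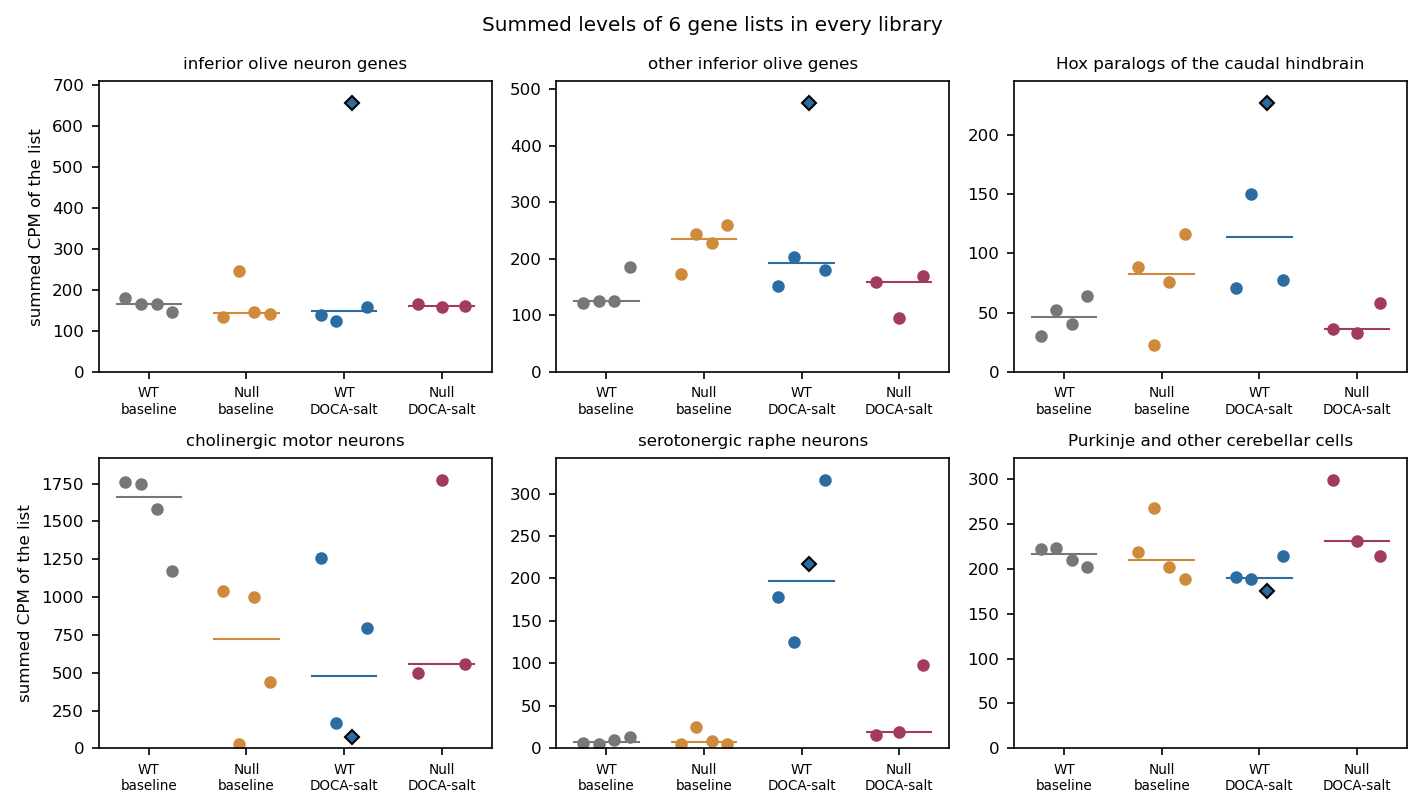
Summed CPM of 6 gene lists in every library, with axes from 0. Points are libraries, bars are group medians, and the black-edged diamond is WT DOCA-salt replicate 3, which had the highest sum of olive genes (656 CPM), of other olive genes (475 CPM) and of Hox genes (227 CPM) and the lowest of cerebellar genes (175 CPM).

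Over all genes tested, 5 were at more than 10 times the next highest library in WT DOCA-salt replicate 3, and 2 of them were among the 8. Htr5b was at 26.9 times and Ano2 at 17.8 times. C1ql1, Foxp2 and Pou4f1 came at ranks 6, 7 and 8, at 9.41, 8.13 and 7.80 times.

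Over the 15 libraries the 28 pairs of the 8 genes had a median Pearson r of log2 CPM of 0.42, from -0.12 to 0.88, with 11 pairs above 0.5. The highest was Htr5b with Ano2. Without WT DOCA-salt replicate 3 the median was 0.058, from -0.52 to 0.64, and Htr5b with Ano2 was the 1 pair above 0.5. Etv1 had r between -0.12 and 0.32 with the other 7 genes over the 15 libraries. These values describe libraries that share the same groups and cohorts, and no p is given.

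**Figure D4:**
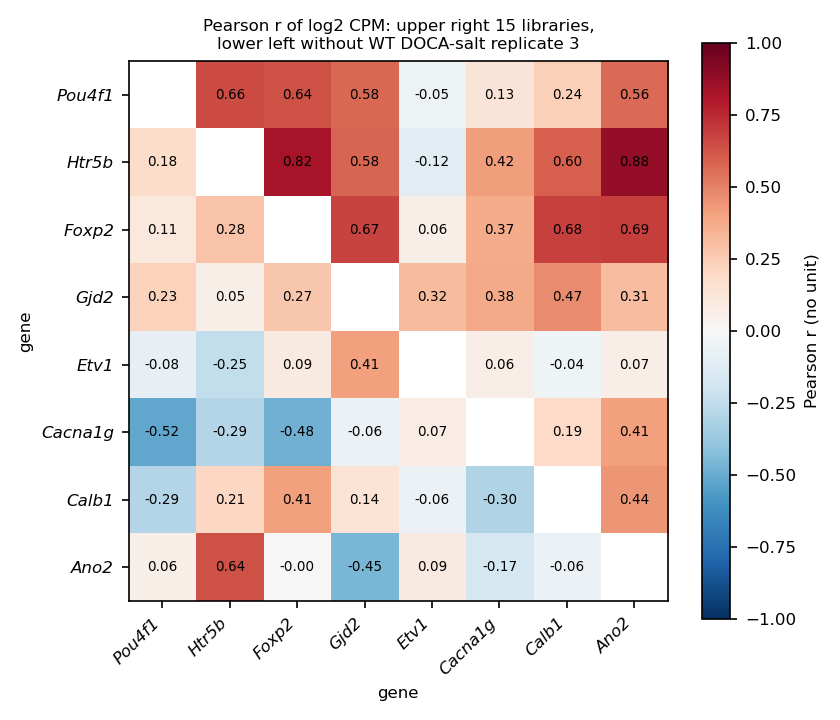
Pearson r of log2 CPM between the 8 genes, over 15 libraries (upper right) and over 14 without WT DOCA-salt replicate 3 (lower left). The r of Htr5b with Ano2 was 0.88 and 0.64, and that of Pou4f1 with Foxp2 was 0.64 and 0.11.

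Among 13942 other tested genes, the 10 closest to the mean pattern of the 8 included Acsl1, Cdk6, Gabra4, Nrcam, C1ql1, Necab2, Adamts2, Pip5k1a and Cpne9, with r from 0.85 to 0.92 over the 15 libraries. Their r fell to between 0.18 and 0.54 without WT DOCA-salt replicate 3. For single genes the closest were Dpysl4 for Htr5b (r = 0.93, and 0.74 without that library), Dnah11 for Ano2 (0.94 and 0.86), Tmem163 for Pou4f1 (0.90 and 0.80) and Gabra4 for Foxp2 (0.92 and 0.70). Arhgef3 was the closest to Calb1 (0.91 and 0.86), Cpne4 to Cacna1g (0.86 and 0.85) and Sh3bgrl2 to Gjd2 (0.82 and 0.65).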

How the data were processed

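Total RNA from RVLM punches was sequenced as 15 strand-specific low-input libraries. The authors aligned reads with STAR to the mouse genome (GRCm38.p6 in the submitters' processing notes) and deposited raw counts per gene, used here as deposited. The gene counter is not given in the sources used here. The deposited tables of the authors' own fold changes and p-values were not used. No label says that replicates came from separate mice, so p-values measure the spread between libraries. Libraries held 19053970 to 30504796 counts, and floors cover counting error only. The SE of a log2 difference includes the spread between libraries. No pair of replicates agreed within sampling noise.

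Protein-coding genes above 1 CPM in at least 1 library were fitted in edgeR 4.0.16 (TMM factors, quasi-likelihood test, 4 group means, all 15 libraries), with Benjamini-Hochberg adjustment over 14852 genes. Calls needed an adjusted p not above 0.05 together with a 2-fold or larger difference. The SE of a log2 difference was its size divided by the square root of F. Levels are CPM with TMM factors, and correlations used log2 CPM with a prior count of 2. Gene spans are from Gencode vM21 and promoters from RefSeq (GRCm38.p6). The 8 genes and all gene lists were chosen with earlier results of these data known. From each other list at most 4 genes with the smallest p are named, with the 3 genes closest to each of the 8 and the 10 closest to their mean. Same-numbered replicates of different groups were treated as unpaired. The fits were tested on simulated data. Alternatives were DESeq2 1.42.0, limma 3.58.1 (voom with quality weights), other scaling and filters, all biotypes, the replicate number or the sex pattern as a term, only the groups compared, and each library left out in turn. After the data were seen, the 2 doubted libraries (replicate 3 of each DOCA-salt group) were also left out together. Some genes that these rules name are not reported here.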

Additional observations from a re-analysis of the deposited data

Results flagged for a closer look

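Within groups of 4 libraries, 24 sets of values of the 8 genes were checked for a library whose gap to its nearest neighbour exceeded Dixon's limit. Of these sets 8 had one. The sets share libraries and the genes were chosen with these data known, so this count is a description and is set against no expected rate. In WT DOCA-salt replicate 3 this held for Pou4f1 (112 CPM), Htr5b (55.3 CPM), Foxp2 (83.0 CPM), Calb1 (158 CPM) and Ano2 (44.2 CPM), each far above the 3 other libraries of the group. Calb1 was also set apart in PRR RVLM-Null baseline replicate 2, at 98.0 CPM against 5.09 to 7.80 CPM in the rest of its group. Etv1 was set apart on the low side in WT baseline replicate 2 (40.1 CPM) and in WT DOCA-salt replicate 2 (36.0 CPM).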

How the results depend on the processing

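For WT DOCA-salt against WT baseline, the count of the 8 genes called was 2 and ranged from 0 (without WT DOCA-salt replicate 3) to 4 (without WT DOCA-salt replicate 1, adding Pou4f1 and Foxp2) when 1 library was left out. Without WT baseline replicate 1, 2 or 3 it was 1 each. DESeq2 called 1, limma voom 0, a fit of only those 2 groups 1, and leaving out both doubted libraries gave 0. For the PRR RVLM-Null and WT groups during DOCA-salt the count of 0 became 1 with DESeq2 and was 0 to 0 when 1 library was left out. For the difference between the DOCA-salt responses it became 1 with DESeq2 and was 0 to 1 when 1 library was left out, the 1 being Pou4f1 without WT DOCA-salt replicate 1. For the PRR RVLM-Null groups with and without DOCA-salt the count was 0 to 1, the 1 being Pou4f1 without WT DOCA-salt replicate 3, and at baseline it was 0 to 0. The other alternatives kept these counts, and no called difference changed sign. Leaving out 1 library turned the sign of 16 of the 40 differences of the 8 genes. Calb1 between the baseline groups turned from 1.93 to -0.24 without PRR RVLM-Null baseline replicate 2. With limma voom the Htr5b and Ano2 differences for WT DOCA-salt against WT baseline were 4.20 and 4.31. DESeq2 gave no adjusted p for Htr5b, Foxp2 and Ano2. The cause was not tested. With the replicate number as a block (replicate block) 2 of the 8 genes were called in WT DOCA-salt against WT baseline and 0 in each other comparison. Of the 21 same-numbered pairs of libraries in different groups 9 had a correlation above 0.1, and of the 63 differently numbered pairs 18 had one. The mean r was 0.0104 and -0.00292. The libraries were treated as unpaired. Depth limits Htr5b and Ano2 in the baseline libraries, where they had 0 to 9 counts.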
